A study of Mus musculus with 6 samples.

Results

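Histone lysine demethylase genes were examined in bone marrow-derived macrophages (BMDMs) 1 h after lipopolysaccharide (LPS), a bacterial cell wall component sensed by the receptor TLR4. The 10 genes are Kdm2a, Kdm2b, Kdm3a, Kdm4a, Kdm4b, Kdm4c, Kdm5b, Kdm6a, Kdm6b and Kdm7a. They were chosen by name, with earlier results of these data known, and are only a part of the lysine demethylase genes. Each matched 1 of the 55335 rows of the gene count table through its Ensembl identifier and GENCODE M21. The data comprised 6 libraries of total RNA from wild-type C57BL/6 BMDMs, 3 given PBS and 3 given LPS, all collected after 1 h. Bone marrow of the femur and tibia was cultured in L929-conditioned medium, and the study used only young adult male mice. The labels number the replicates 1 to 3 in each group and give the same numbers as batches. Nothing states that replicates came from separate mice, so p-values measure only the spread between these samples, which may be technical. The LPS dose of these cultures was not given in the sources used here.

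Histone lysine demethylases remove methyl groups from lysines of histone tails and act against the methyltransferases that place them. All 10 genes here encode enzymes with a JmjC domain, which needs iron and 2-oxoglutarate, or close relatives of them. Kdm6a (UTX) and Kdm6b (JMJD3) act on H3K27, the mark that the Polycomb complex PRC2 lays down at repressed genes, and Kdm6b is known as a gene induced by inflammatory signals in macrophages. Kdm7a acts on H3K9 and H3K27, Kdm3a on H3K9, the Kdm4 enzymes on H3K9 and H3K36, Kdm2a and Kdm2b on H3K36, and Kdm5b on H3K4.

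Library totals lay between 37787611 and 41516330 counts. Values are counts per 1000000 counts of the library (CPM) scaled by edgeR's TMM factors, whose mean was 1.15 in PBS and 0.869 in LPS libraries, so the scaling enters every difference. With library size alone the log2 fold changes of all tested genes shifted by a median of -0.40, and with upper quartile scaling by -0.14. As a check of the labels, all 10 genes of an LPS response list rose, Tnf among them from 20.2 ± 1.19 to 2301 ± 49.8 CPM (SD, n = 3 each). The 8 macrophage markers summed to between 29728 and 31009 CPM in PBS and between 32493 and 32837 CPM in LPS libraries. Lyz2 made up most of both sums, with means of 23259 and 24210 CPM. The markers did not all move together, since Csf1r rose from a mean of 3261 to 4161 CPM and Fcgr1 fell from 396 to 284 CPM. The 18 markers of other cells summed to between 46.7 and 48.2 CPM in PBS and between 63.6 and 66.7 CPM in LPS libraries, with Ly6g and Hbb-bs at or under 3 counts in each library. Of these 18, Flt3, Siglech and Cdh5 rose past both criteria given next, and their part in the results below was not tested. In such bulk samples, fewer cells of a type and less RNA per cell cannot be told apart.

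Differences between LPS and PBS libraries were tested for the 15687 genes with enough counts, using the quasi-likelihood F-test of edgeR and Benjamini-Hochberg adjustment over all of them. Each log2 fold change is LPS over PBS and is given with its standard error (SE). All 10 demethylase genes were among these. A gene was past both criteria if its adjusted p was under 0.05 and its log2 fold change above 1 or below -1. Kdm6b and Kdm7a rose past them, which makes 2 of 10 genes, while 20.9% of all tested genes were past them and 10.5% rose. By edgeR, DESeq2 or limma voom, 0 of the 10 fell past both criteria, against 10.4% of all tested genes by edgeR. In edgeR's test 6 of the 10 had a lower level with LPS at an unadjusted p under 0.05, as had 36.1% of all tested genes. At an adjusted p under 0.05 alone, 4 rose and 6 fell, against 32.9% and 34.9% of all tested genes. With library size alone 2 rose and 7 fell, but the shares of all tested genes were not counted in that setting. Their median log2 fold change was -0.42 there, so these 2 counts cannot be read as a result about the demethylase genes. The 2 groups of libraries did not overlap in any of the 10 genes, which was also true of 70.5% of all tested genes (33.9% with LPS higher and 36.6% with LPS lower). The median log2 fold change was -0.14 over the 10 genes and -0.013 over all tested genes.

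**Figure D1:**
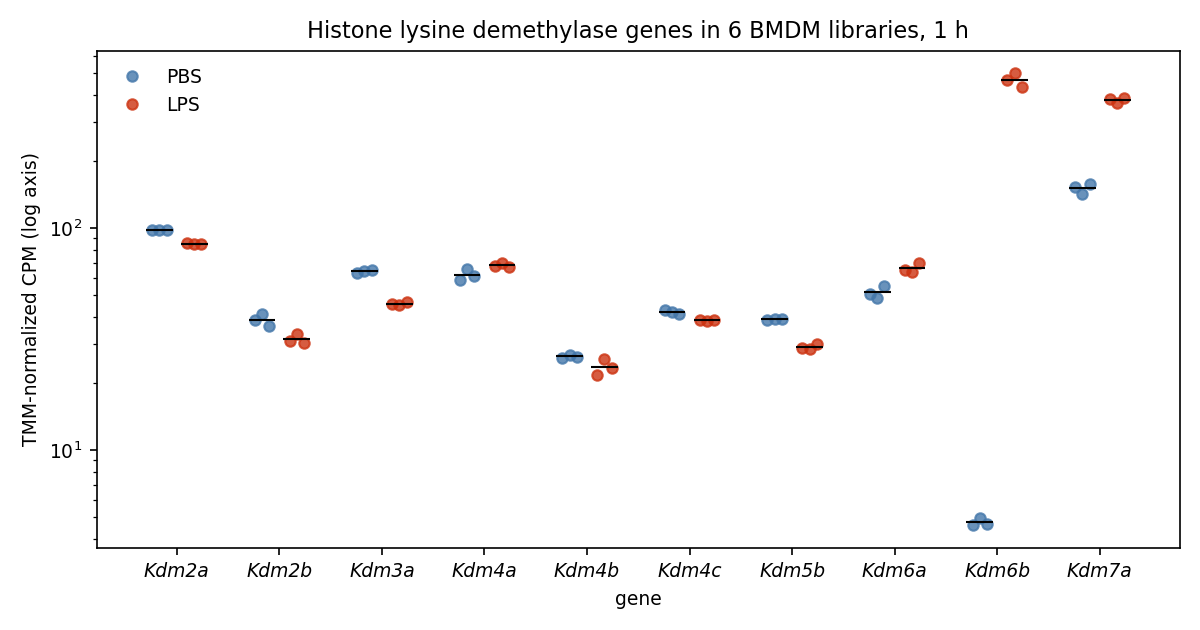
TMM-normalized CPM (log axis) of the 10 demethylase genes in each library, PBS in blue and LPS in red, with black lines at the means of 3 libraries. Kdm6b rises from a mean of 4.74 to 466 CPM and Kdm7a from 152 to 379 CPM, and the other 8 genes differ by less than 0.5 on the log2 scale.

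Kdm6b, the H3K27 demethylase JMJD3, changed most. It had 219, 224 and 216 counts in PBS replicates 1, 2 and 3, and 15609, 16291 and 14782 counts in the LPS replicates. In CPM its levels were 4.60, 4.96 and 4.68 in PBS and 464.9, 498.8 and 434.1 in LPS libraries. Each LPS library thus lay far above each PBS library, and the spread within either group was small against the gap. The mean rose from 4.74 ± 0.188 to 466 ± 32.4 CPM (SD, n = 3 each), a 98.2-fold change, or 6.62 on the log2 scale ± 0.06 (SE; edgeR adjusted p = 5.37e-23). It was the change of rank 98 from the top among the 15687 tested genes. Within batches 1, 2 and 3 the log2 difference was 6.51, 6.52 and 6.39, computed with an offset of 0.5 CPM. With library size alone the log2 fold change was 6.21. In GENCODE M21 on GRCm38 the gene (ENSMUSG00000018476.7) lies on the minus strand at chr11:69398508-69413675. Its span of 15168 bp is the shortest of the 10, and 35.7% of the 12146 tested protein-coding genes have a shorter one. The antisense gene Kdm6bos shares 286 of its 840 exonic bp with Kdm6b. It had 0 counts in each PBS library and 9, 2 and 6 counts in LPS libraries, too few for the test. Since the strand setting of the counting was not given, reads of Kdm6b and Kdm6bos cannot be told apart in the shared stretch.

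Kdm6a, the X-linked relative of Kdm6b, was past the test but not the fold criterion. Its levels were 50.6, 48.7 and 55.0 CPM in PBS and 64.7, 63.6 and 69.6 CPM in LPS libraries, so that the lowest LPS library was above the highest PBS library. The log2 fold change was 0.36 ± 0.05 (SE; edgeR adjusted p = 3.08e-06), but with library size alone it was -0.046 (adjusted p = 0.389 by the same test), so its direction rests on the scaling. The ratio of Kdm6b to Kdm6a counts within a library does not depend on any scaling. On the log2 scale it was -3.46, -3.29 and -3.55 in PBS and 2.85, 2.97 and 2.64 in LPS libraries. Kdm6a counts thus exceeded those of Kdm6b in each PBS library, and the reverse held in each LPS library. The mean difference between the groups was 6.25, with p = 0.1 in an exact two-sided permutation test, the smallest p that 3 libraries against 3 allow (adjusted p = 0.167 over 5 ratios). No word as long as a read in Kdm6a transcripts recurs in a transcript of another gene, including the Y-linked copy Uty (0 of 8769 words), which also held for Kdm2a, Kdm3a, Kdm5b and the Kdm4 genes.

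Kdm7a, which encodes a demethylase of H3K9 and H3K27 with a PHD finger, was the other gene that rose past both criteria. Its levels were 153.4, 142.6 and 158.5 CPM in PBS and 384.2, 366.0 and 386.1 CPM in LPS libraries. The mean rose 2.50-fold, from 152 ± 8.11 to 379 ± 11.1 CPM (SD, n = 3 each), or by a log2 fold change of 1.32 ± 0.04 (SE; edgeR adjusted p = 1.96e-15). The differences within batches were 1.32, 1.36 and 1.28 on the log2 scale. With library size alone the log2 fold change was 0.92 (adjusted p = 1.06e-12 by the same test), which is under the fold criterion. The antisense gene 4930599N23Rik, which shares 287 of its 880 exonic bp with Kdm7a, had 96, 96 and 68 counts in PBS and 46, 51 and 39 in LPS libraries. The log2 fold change of -0.46 ± 0.18 (SE; edgeR adjusted p = 0.0351) thus had the opposite sign to that of Kdm7a. Its groups overlapped, though, with the lowest PBS library at 1.47 CPM and the highest LPS library at 1.56 CPM. Reads of Kdm7a and 4930599N23Rik in the shared stretch cannot be told apart either.

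The promoters of Kdm7a and of the 2 members with the lowest log2 fold changes, Kdm3a and Kdm5b, are shown because they belong to the members at either end of the response for which a sequence was at hand. They come from RefSeq on GRCm38.p6 and run from 250 bases before to 50 after the start site, 5′ to 3′ on the strand of the gene, at chr6:39206724-39207023 (minus), chr6:71632868-71633167 (minus) and chr1:134559928-134560227 (plus). Capitals mark a match, on either strand, to the NF-kB consensus, to AP-1 (TGANTCA), to the CRE (TGACGTCA) or to the E-box (CACGTG).
Kdm7a: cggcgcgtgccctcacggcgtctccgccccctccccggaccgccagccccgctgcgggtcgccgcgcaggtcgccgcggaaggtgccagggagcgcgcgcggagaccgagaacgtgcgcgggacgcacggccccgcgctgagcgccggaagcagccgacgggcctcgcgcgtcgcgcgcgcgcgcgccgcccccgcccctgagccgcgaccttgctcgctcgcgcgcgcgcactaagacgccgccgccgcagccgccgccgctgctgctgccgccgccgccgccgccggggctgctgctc
Kdm3a: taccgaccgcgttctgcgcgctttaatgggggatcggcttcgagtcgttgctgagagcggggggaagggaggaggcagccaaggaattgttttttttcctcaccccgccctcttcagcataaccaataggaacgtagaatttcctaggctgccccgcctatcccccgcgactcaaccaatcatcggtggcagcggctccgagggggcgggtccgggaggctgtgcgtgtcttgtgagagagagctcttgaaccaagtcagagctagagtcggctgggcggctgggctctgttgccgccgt
Kdm5b: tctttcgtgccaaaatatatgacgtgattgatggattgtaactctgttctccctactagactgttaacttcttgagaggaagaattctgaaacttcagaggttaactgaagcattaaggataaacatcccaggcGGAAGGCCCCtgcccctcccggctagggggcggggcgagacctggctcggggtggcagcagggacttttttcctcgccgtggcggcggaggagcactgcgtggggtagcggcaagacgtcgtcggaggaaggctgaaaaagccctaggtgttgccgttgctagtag
The table held promoters for 7 of the 10 genes, all but Kdm2a, Kdm4b and Kdm6b, and where a gene had several, the one nearest to its GENCODE start was taken. The Kdm7a window held 65 CpG dinucleotides and 82.7% G and C. The median over the 32851 promoters of the table was 7 CpG and 52.7% G and C, and 0.00913% of them had at least as many CpG as Kdm7a. Kdm3a had 24 CpG and Kdm5b 17, while the window of Kdm4c had 0. Among the 7 windows, the NF-kB consensus was found in that of Kdm5b, AP-1 in that of Kdm4a and the E-box in that of Kdm6a, at 1 match each, and the CRE in none. Over all promoters of the table, 8.46% held the NF-kB consensus, 7.81% AP-1, 7.15% the E-box and 1.79% the CRE. These matches of letters describe the windows and no binding was measured.

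Kdm3a, a demethylase of H3K9 known as a target of the hypoxia response, had the lowest log2 fold change of the 10. Its levels were 63.1, 63.9 and 64.9 CPM in PBS and 45.8, 45.0 and 46.3 CPM in LPS libraries. The 3 libraries of each group lay close together and far from those of the other group. The log2 fold change was -0.48 ± 0.04 (SE; edgeR adjusted p = 2.23e-09). Kdm5b, which removes methyl groups from H3K4 at promoters and enhancers, came next. It had 38.8, 39.1 and 39.2 CPM in PBS and 28.8, 28.6 and 30.2 CPM in LPS libraries, a log2 fold change of -0.42 ± 0.04 (SE; edgeR adjusted p = 1.43e-07). The fitted levels of these genes in LPS libraries were thus 0.715 and 0.749 of those in PBS libraries.

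Kdm2a and Kdm2b encode the H3K36 demethylases with a CXXC zinc finger, a domain that binds CpG-rich DNA. Kdm2a had 98.0, 98.2 and 97.9 CPM in PBS and 85.4, 85.3 and 85.2 CPM in LPS libraries, and the log2 fold change was -0.20 ± 0.03 (SE; edgeR adjusted p = 3.22e-05). The spread among its libraries was the smallest of the 10 genes, with an SD of 0.123 CPM in PBS and 0.141 CPM in LPS. An SD from 3 libraries is itself imprecise, so this is not read as a trait of Kdm2a. Kdm2b had 38.5, 41.1 and 36.3 CPM in PBS and 31.0, 33.5 and 30.3 CPM in LPS libraries, and the log2 fold change was -0.29 ± 0.05 (SE; edgeR adjusted p = 1.01e-04). The log2 ratio of Kdm2b to Kdm2a counts ran from -1.43 to -1.26 in PBS and from -1.49 to -1.35 in LPS libraries. These ranges overlap, and the mean difference was -0.091 (exact two-sided permutation p = 0.2), or -0.047 without PBS replicate 2 (exact two-sided permutation p = 0.5). Kdm2b is also the least cleanly counted of the 10, since 10.4% of its words as long as a read recur in transcripts of other genes. The overlapping gene Rnf34 on the opposite strand shares 627 exonic bp with it and fell by 0.49 on the log2 scale, and the gene Gm12397, which does not overlap it, holds 515 of its 11246 words. The antisense gene A930024E05Rik, which shares 199 exonic bp with Kdm2b, had 76, 61 and 46 counts in PBS and 4, 4 and 6 in LPS libraries. For this gene the log2 fold change was -3.21 ± 0.33 (SE; edgeR adjusted p = 1.06e-07), far from that of Kdm2b itself.

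The Kdm4 genes encode demethylases of H3K9 and H3K36 and had log2 fold changes between -0.16 and 0.14 with TMM scaling. Kdm4a had 58.4, 65.3 and 61.1 CPM in PBS and 67.5, 69.7 and 66.9 CPM in LPS libraries, and the log2 fold change was 0.14 ± 0.04 (SE; edgeR adjusted p = 0.00643). That value was -0.26 with library size alone (adjusted p = 2.58e-05) and 0.00066 with upper quartile scaling (adjusted p = 0.991 by the same test), so no direction can be given for Kdm4a. Kdm4b had 26.2, 27.0 and 26.4 CPM in PBS and 21.9, 25.8 and 23.6 CPM in LPS libraries, where replicate 1 was the lowest. Its log2 fold change of -0.16 ± 0.06 (SE; edgeR adjusted p = 0.0209) had an adjusted p of 0.0734 with DESeq2. In edgeR's test it was -0.10 (adjusted p = 0.137) without LPS replicate 1 and -0.14 (adjusted p = 0.0546) without PBS replicate 2. Kdm4c had 42.7, 41.9 and 41.0 CPM in PBS and 38.8, 38.2 and 38.4 CPM in LPS libraries, a log2 fold change of -0.12 ± 0.04 (SE; edgeR adjusted p = 0.0146). Its adjusted p was 0.0843 with DESeq2 and 0.0510 in edgeR's test without PBS replicate 1.

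**Figure D2:**
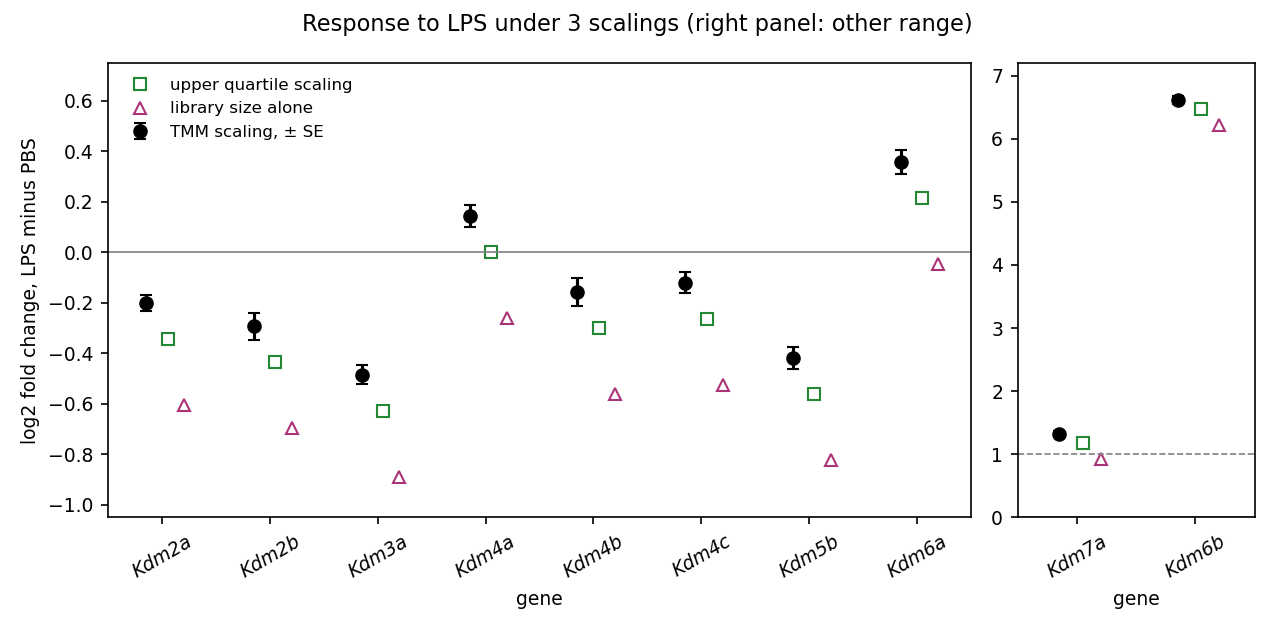
Log2 fold change of LPS over PBS for the 10 genes with TMM scaling (black, with standard error), upper quartile scaling (green) and library size alone (purple); the right panel has its own range and a dashed line at 1. Kdm4a and Kdm6a change sign between TMM scaling (0.14 and 0.36) and library size alone (-0.26 and -0.046), while Kdm6b stays above 6 and 6 genes stay below 0.

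Ratios among the Kdm4 genes within a library, which no scaling affects, showed how they moved against each other. The log2 ratio of Kdm4a to Kdm4b counts was 1.16, 1.28 and 1.21 in PBS and between 1.43 and 1.62 in LPS libraries. That of Kdm4a to Kdm4c was 0.45, 0.64 and 0.57 in PBS and 0.80, 0.87 and 0.80 in LPS libraries. In both ratios each LPS library was above each PBS library, by means of 0.30 and 0.27, with an exact two-sided permutation p of 0.1 each, the smallest possible (adjusted p = 0.167 over 5 ratios). The ratio of Kdm4b to Kdm4c overlapped between the groups, with a mean difference of -0.039 (exact two-sided permutation p = 0.7) that became 0.023 without LPS replicate 1, -0.10 without LPS replicate 2 and -0.062 without PBS replicate 1.

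**Figure D3:**
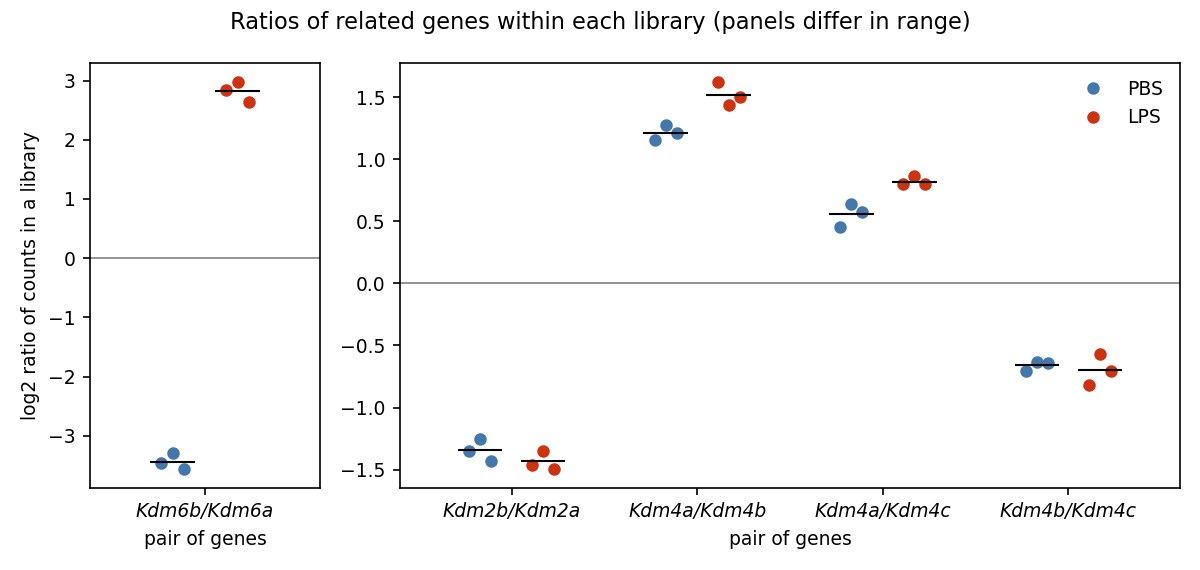
Log2 ratio of the counts of related genes within each library, PBS in blue and LPS in red, with black lines at the group means and a separate range for the left panel. The Kdm6b/Kdm6a ratio moves from a mean of -3.44 to 2.82, the 2 ratios with Kdm4a on top are higher in each LPS library, and the other 2 overlap.

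Levels of different genes were compared as normalized CPM per kb of annotated exon. In PBS libraries Kdm7a was the highest at 15.1 ± 0.806 CPM per kb, followed by Kdm4a at 10.7 ± 0.602, and Kdm6b was the lowest at 0.682 ± 0.0270 (SD, n = 3 each). In LPS libraries Kdm6b was the highest at 67.0 ± 4.66 CPM per kb, followed by Kdm7a at 37.7, with libraries between 36.4 and 38.4, and by Kdm4a at 11.8 ± 0.257, and Kdm5b was the lowest at 1.76 ± 0.0543 (SD, n = 3 each). The PBS order from the top was Kdm7a, Kdm4a, Kdm3a, Kdm4c, Kdm2a, Kdm6a, Kdm4b, Kdm2b, Kdm5b and Kdm6b. The LPS order was Kdm6b, Kdm7a, Kdm4a, Kdm6a, Kdm4c, Kdm2a, Kdm3a, Kdm4b, Kdm2b and Kdm5b. No neighbours in either order had overlapping ranges over the 3 libraries. With the longest transcript as length, the first 3 and the last 2 places in PBS and the first 4 and the last in LPS were kept, and the places between them moved by at most 2.

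The sum of the 10 levels per kb was between 65.1 and 66.4 CPM in PBS and between 148.2 and 155.8 CPM in LPS libraries. Without Kdm6b and Kdm7a, the other 8 genes summed to between 49.2 and 50.5 CPM per kb in PBS and between 46.6 and 47.7 in LPS libraries. Kdm6b made up 1.04% ± 0.0431 of the summed level in PBS and 44.1% ± 1.97 in LPS libraries (SD, n = 3 each). The share of Kdm7a was 23.0% ± 1.12 and 24.8% ± 1.31, with overlapping libraries. The share of Kdm4a was 16.2% in PBS and 7.74% in LPS libraries, and that of Kdm3a 11.9% and 3.66%. These shares do not depend on the scaling between libraries. A share can fall because the sum rises. With TMM scaling the level of Kdm4a itself was 10.7 CPM per kb in PBS and 11.8 in LPS libraries, while that of Kdm3a was 7.78 and 5.56.

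**Figure D4:**
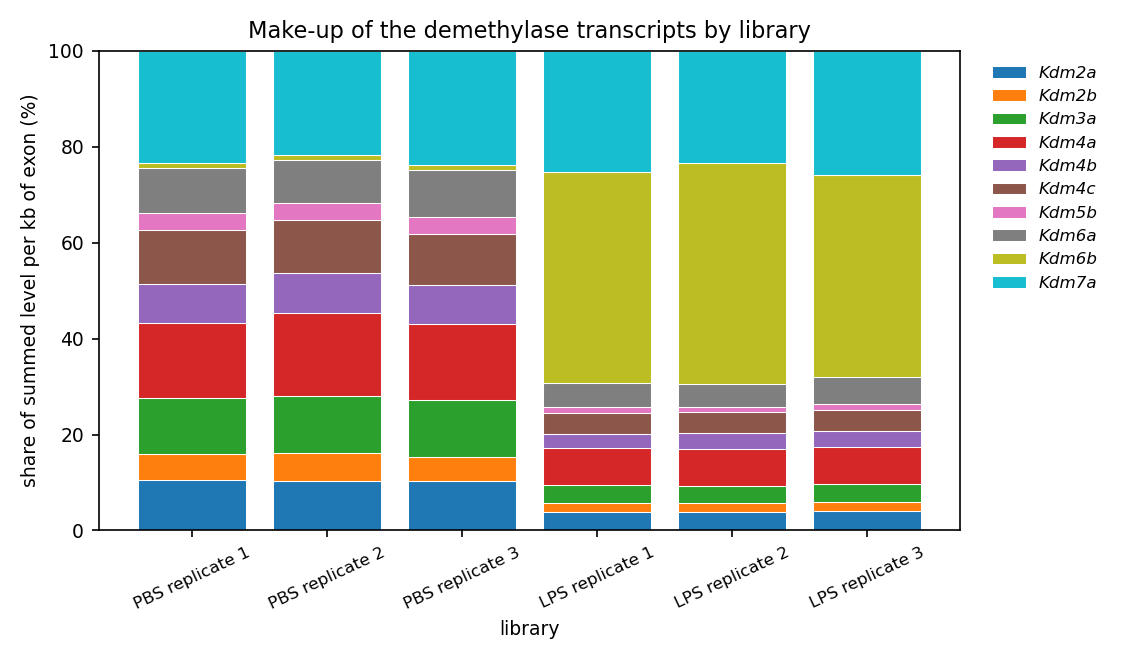
Share of each of the 10 genes in their summed level per kb of exon (%), stacked by library. Kdm6b takes at most 1.09% in PBS libraries and 42.1% to 46.0% in LPS libraries, and the share of Kdm7a stays between 21.7% and 25.9%.

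Other genes of the same pathway were taken from lists written with earlier results of these data known. Over all tested genes, 32.9% rose and 34.9% fell at an adjusted p under 0.05, and 10.5% rose and 10.4% fell past both criteria. No set test was run, and the shares at an adjusted p alone were not counted with library size alone. Of 15 further lysine demethylase genes, 13 could be tested, 6 rose and 5 fell on the adjusted p alone, and these counts were 1 and 10 with library size alone. The genes past both criteria were Riox1, a nucleolar JmjC protein, which fell from 17.8 ± 0.304 to 5.09 ± 0.565 CPM (SD, n = 3 each; log2 fold change -1.81), and Kdm8, which fell from 2.38 ± 0.103 to 1.06 ± 0.0822 CPM (SD, n = 3 each; log2 fold change -1.17). Jmjd1c rose from 317 ± 12.3 to 627 ± 20.6 CPM (SD, n = 3 each), just under the fold criterion (log2 fold change 0.98, edgeR adjusted p = 8.04e-14). Of 29 lysine methyltransferase genes, 7 rose and 16 fell at an adjusted p under 0.05, with a median log2 fold change of -0.22, and the counts were 4 and 25 with library size alone. Dot1l, the H3K79 methyltransferase, rose from 49.1 ± 1.76 to 309 ± 15.7 CPM (SD, n = 3 each; log2 fold change 2.66, edgeR adjusted p = 1.31e-19). Prdm2, an H3K9 methyltransferase, rose from 37.0 ± 0.685 to 95.7 ± 0.716 CPM (SD, n = 3 each; log2 fold change 1.37, edgeR adjusted p = 2.81e-16), but was not past both criteria with library size alone.

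Subunits that work with the Kdm2 and Kdm6 proteins moved unevenly. With TMM scaling, the shares of all tested genes to set beside their counts are again 32.9% that rose and 34.9% that fell on the adjusted p alone. No such shares were counted with library size alone, which moves all genes down together. The counts in that setting therefore have nothing to be set beside. Of 9 genes of PRC1.1, the Polycomb complex that Kdm2b brings to CpG islands, 5 rose and 1 fell on the adjusted p alone in edgeR, against 3 and 5 with library size alone. Bcor, its corepressor subunit, rose from 28.8 to 106 CPM (log2 fold change 1.89), while Pcgf1, which defines the complex, fell from 5.42 to 2.20 CPM (log2 fold change -1.30). The ubiquitin ligase gene Rnf2 and its partner Rybp had log2 fold changes of 1.05 and 1.03, past both criteria with TMM scaling but with neither upper quartile scaling nor library size alone. Of 9 genes of the MLL3/MLL4 complex, in which Kdm6a resides, 8 could be tested, 2 rose and 4 fell, against 2 and 6 with library size alone. The 2 that rose with TMM scaling were Kmt2c and Kmt2d, which encode the methyltransferases of the complex, with log2 fold changes of 0.50 and 0.76. The core subunit gene Rbbp5 was the one past both criteria, falling from 46.9 ± 0.326 to 21.5 ± 0.360 CPM (SD, n = 3 each; log2 fold change -1.13). Of 11 subunit genes of PRC2, which methylates H3K27, 5 rose and 2 fell, against 3 and 8 with library size alone. Aebp2 and Jarid2, which encode accessory subunits, had log2 fold changes of 1.47 and 1.11, and Jarid2 was not past both criteria with library size alone or upper quartile scaling. The median log2 fold changes were 0.08 for the further demethylases, 0.15 for PRC1.1, -0.16 for the MLL3/MLL4 complex and 0.10 for PRC2. The lists are not all separate. Kmt2c and Kmt2d of the MLL3/MLL4 complex and Ezh1 and Ezh2 of PRC2 were also counted among the methyltransferases.

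**Figure D5:**
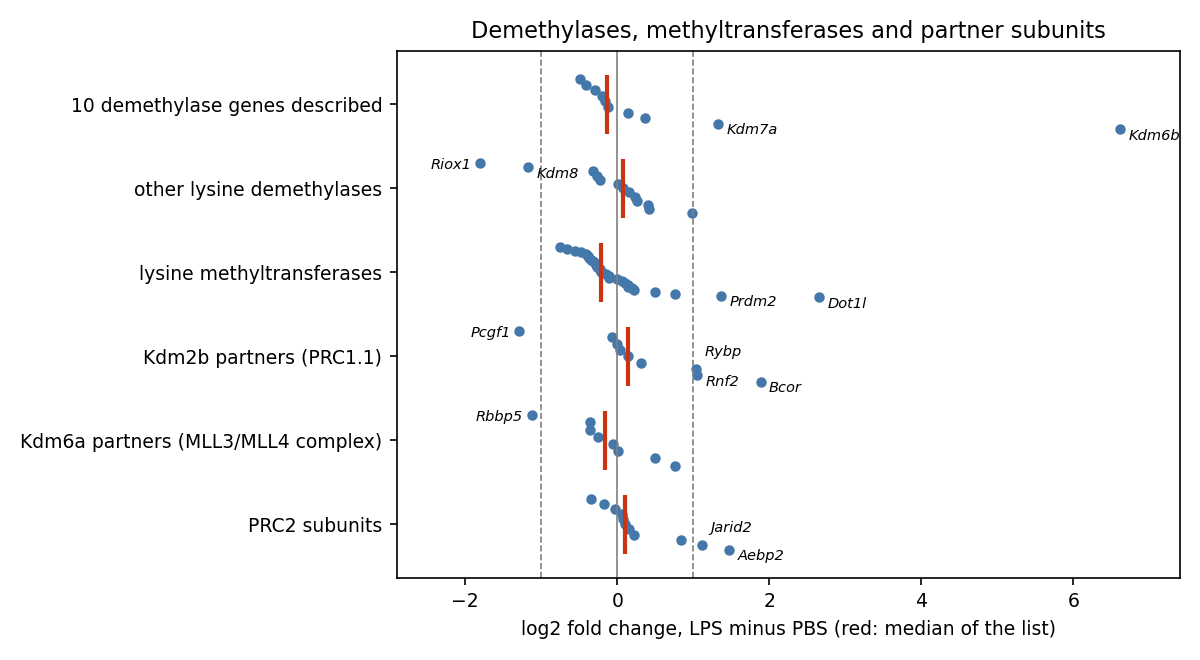
Log2 fold change of LPS over PBS (x axis) of the tested genes in each list, with red lines at the medians, dashed lines at -1 and 1, and names for genes beyond them. Kdm6b, at 6.62, lies beyond any other gene shown, and Dot1l follows at 2.66.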

How the data were processed

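Total RNA of BMDMs was sequenced in 6 libraries, 3 given PBS and 3 given LPS for 1 h. The authors aligned paired-end reads to GRCm38 with HISAT2 2.1.0, counted them per gene with featureCounts 2.0.0 and deposited raw counts for 55335 genes. The annotation release, strand setting and treatment of multi-mapping reads were not given in the sources used here. Of the identifiers, 55154 matched GENCODE M21 when the version was ignored.

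Counts were analysed in R 4.3.3 with edgeR 4.0.16 (filterByExpr, TMM, quasi-likelihood test, Benjamini-Hochberg adjustment over 15687 genes). Calls past both criteria needed a log2 fold change beyond 1 in size at an adjusted p under 0.05. Standard errors were derived from the F statistic. Functions were tested on simulated data. Alternatives were DESeq2 1.42.0, limma 3.58.1 (voom), other scalings and filters, the replicate block and leaving out each library. Count ratios within libraries used an offset of 0.5 counts. A floor of 3 counts, which covers counting error only, corresponded to between 0.0630 and 0.0919 CPM.

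The labels give each replicate number as a batch shared by the groups, which pairs the libraries. After centring each gene on its group means, libraries with the same number correlated at -0.02, 0.16 and 0.06 across genes. The members and lists were chosen with earlier results of these data known. Named were the 10 members, genes whose exons overlap them, and from each list up to 4 genes past both criteria with the largest change, or else the gene with the largest change. The genes Gm12397, Setd1b, Kmt5c, Jmjd1c, Hr, Fcgr1, S100a8, S100a9, Ezh1, Ezh2, Kmt2c and Kmt2d were named after their values were seen. No protein sequences were used here.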

Additional observations from a re-analysis of the deposited data

How the results depend on the processing

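The scaling between libraries was the choice that moved most. With library size alone, the log2 fold change turned to -0.26 for Kdm4a and -0.046 for Kdm6a, and was 0.92 for Kdm7a. Past both criteria, 1 of the 10 demethylase genes then rose (Kdm6b), as did 1 methyltransferase, 1 PRC1.1 gene and 1 PRC2 gene, while 2 methyltransferases (Setd1b and Kmt5c) fell. Of all 15687 tested genes, 1213 rose and 2962 fell past both criteria in this setting. At an adjusted p alone, 2 of the 10 then rose, and the share of all tested genes was not counted. This setting leaves out the composition factors, which moves all genes down together. With upper quartile scaling 1 PRC1.1 gene and 1 PRC2 gene rose past both criteria, as did 1467 of all 15687 tested genes. Among the further demethylases, 1 gene rose past both criteria with DESeq2's size factors or DESeq2's test (Jmjd1c) and with no filter (Hr), and, in the leave-one-out settings, without LPS replicate 2 (Jmjd1c), any PBS replicate or LPS replicate 3 (Hr), and 0 without LPS replicate 1. Hr had 6, 6 and 7 counts in PBS and 14, 14 and 7 in LPS libraries, and the main filter left it out. A group of 2 libraries loosens that filter, with 15930 genes tested without PBS replicate 1. The Kdm4b/Kdm4c ratio was -0.10 without LPS replicate 2 and 0.023 without LPS replicate 1, the ends of its leave-one-out range. With the longest transcript as length, the share of the summed level was 0.786% in PBS and 39.2% in LPS for Kdm6b, 17.5% and 22.2% for Kdm7a, and 12.6% and 5.57% for Kdm2a. A block for the replicate number gave log2 fold changes of 6.62 for Kdm6b and 1.32 for Kdm7a and changed no call of the 10 genes or the lists past both criteria. Whatever the sign, the adjusted p was under 0.05 in 13 of 14 alternatives for Kdm4a and for Kdm6a, in 11 for Kdm4b and in 12 for Kdm4c. It was under 0.05 in all 14 for the other 6 genes. For Kdm4a the 13 include library size alone, where the log2 fold change of -0.26 had the opposite sign to the main fit. With DESeq2, 4 of the 10 fell on the adjusted p alone, and the cause was not tested. Depth limits Kdm6bos, Kdm4d and Hr, which had too few counts for the test in the main fit.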
